A study of Mus musculus with 16 samples.

Results

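Loop anchors that hold the start site of a noncoding RNA gene and no start site of a protein-coding gene were described in the mouse cochlea. Micro-C, which digests fixed chromatin with micrococcal nuclease and ligates fragments that were in contact, was performed in 4 replicates of whole cochlea, dissected from C57Bl/6 mice at postnatal day 0 by the sample labels and at P0/1 by the study's methods. Whole cochlea holds hair cells, supporting cells, neurons, mesenchyme and other types, all in 1 mixture. The study's results call 3 of the replicates biological and 1 technical, and headings in its supplement call all 4 biological. By that supplement, replicate 4, the technical one in the results, had the most read pairs, so that the replicates did not weigh equally. The 4 were merged before loops were called, so that no spread between replicates can be given. No test was made between the loops or bins below. A loop is a pair of 10 kb bins (its anchors) with a false discovery rate (FDR), and distance is counted between the left borders of its bins. Of the 11622 distinct anchor bins on chromosomes 1 to 19, 502 (4.32%, 95% Wilson interval 3.96 to 4.70) met the rule in the GENCODE vM21 annotation of mm10 (GRCm38), and 563 of the 6689 loops used them. Intervals cover counting error over bins, loops or genes only. They treat bins and loops as independent, although neighbouring loops share contacts, and the read depth behind each loop is not in the list.

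Long noncoding RNA genes are transcribed and often spliced but carry no long open reading frame. Some run antisense to a protein-coding gene, some stand alone between genes (lincRNA), and many lie close to genes that control development. Their start sites can act as enhancers or as boundaries whether or not the RNA itself has a function. Chromatin loops of this kind form when cohesin extrudes DNA until it meets bound CTCF, typically at a pair of CTCF sites that point toward each other.

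The 502 bins held the start sites of 535 noncoding genes, of which 352 were lincRNA, 155 antisense and 28 processed_transcript genes, and the annotation had 0 genes of type lncRNA. A single start site was present in 471 bins, 29 bins held 2 and 2 bins held 3. On chromosome 1, the bin chr1:43740001-43750000 held Gm29155, Gm29156 and Gm29157, all within 15680 bp of the start of 1500015O10Rik, and looped over 610 kb (FDR 0.00449). The bin chr12:110590001-110600000 held B930059L03Rik and a pair of gene models that share the symbol Gm35558, the nearer of which began 4093 bp from Dync1h1, the dynein heavy chain, and its loop spanned 140 kb (FDR 0.00458). The AL592112.1 and AY702103 pair on chromosome 17 looped over 280 kb with an FDR of 3.20e-06.

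The sequences at both ends of some loops are shown first, because the direction of the CTCF site is the feature that the rule did not use and that varied with the side of the loop. Each line gives the 44 bases around a match of the 14-base CTCF consensus, read 5′ to 3′ on the strand of the match, with the match in capitals. The 8 windows come from 4 loops that were picked, after their values were seen, as examples of matches that face each other.
Platr5 anchor, chr1:88750307-88750350, plus strand: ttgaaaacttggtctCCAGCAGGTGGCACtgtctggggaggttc
Partner of Platr5, chr1:89196254-89196297, minus strand: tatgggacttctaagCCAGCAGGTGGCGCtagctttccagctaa
Gm13530 anchor, chr2:33487020-33487063, plus strand: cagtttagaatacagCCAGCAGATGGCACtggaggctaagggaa
Lmx1b anchor, chr2:33643264-33643307, minus strand: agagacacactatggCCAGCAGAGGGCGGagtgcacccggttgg
Myc anchor, chr15:61983416-61983459, plus strand: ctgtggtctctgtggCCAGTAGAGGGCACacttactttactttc
Gm41336 anchor, chr15:63740732-63740775, minus strand: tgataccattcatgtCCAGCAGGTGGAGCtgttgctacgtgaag
4833412C05Rik anchor, chr7:67803718-67803761, plus strand: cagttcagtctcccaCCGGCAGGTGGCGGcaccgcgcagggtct
Igf1r anchor, chr7:67951040-67951083, minus strand: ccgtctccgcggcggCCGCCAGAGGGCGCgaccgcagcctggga
In these loops the left window lies on the plus strand and the right window on the minus strand. Of the 22 loops named in the text by rule that had 1 orientation at each end, 19 had matches that faced each other and 3 had both on the same strand. Those 3 were the 330 kb loop of Platr5, the loop of AL592112.1 and AY702103 and the 620 kb loop of Gm15418. The named loops were picked by rank or list and do not stand for the rest. Over all 140 loops of noncoding-only bins with 1 orientation at each end, 67.1% had matches that faced each other, against 68.7% of 1343 other loops. The windows at Platr5, its partner, Gm13530, Lmx1b and Myc matched without a mismatch, and those at Gm41336, 4833412C05Rik and Igf1r had 1. The orientation of a bin is that of its better match, and 32 of the 502 bins had matches on both strands. The printed partner bin of Platr5 also held a plus-strand match with 1 mismatch, at chr1:89197965-89198008.

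Counted by bin, the shares that were anchors had overlapping intervals for noncoding-only and protein-coding-only bins. Over chromosomes 1 to 19, 4.85% of all 10 kb bins were anchors, and among the 6663 bins with a noncoding start only, 502 were (7.53%, 6.92 to 8.19). The share was 7.15% (6.77 to 7.55) of 16751 bins with a protein-coding start only, 10.7% (9.37 to 12.2) of 1831 bins with both kinds and 4.54% (4.45 to 4.63) of 214242 bins with neither. Counted by gene, the intervals did not overlap, as 741 of 8875 noncoding genes began in an anchor (8.35%, 7.79 to 8.94), beside 1529 of 20807 protein-coding genes (7.35%, 7.002 to 7.71). Of the 6970 noncoding genes that begin away from any bin with a protein-coding start, 535 did (7.68%, 7.07 to 8.32), with 7.63% of lincRNA, 7.97% of antisense and 6.75% of processed_transcript genes.

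GC content moved with these shares, and its part in them was not tested. The noncoding-only anchors had a median GC content of 45.65% and 117.5 CpG per bin, against 46.88% and 177 in anchors with a protein-coding start only. Outside the anchors, bins with a noncoding start only had a median GC content of 44.21%. Within terciles of all bins by GC content, with limits at 39.55% and 43.52%, noncoding-only bins were anchors in 3.64% (2.59 to 5.09), 5.37% (4.45 to 6.46) and 9.52% (8.63 to 10.5) of cases from the low to the high tercile. Bins with neither kind of start gave 1.85%, 4.48% and 7.86% in the same order, so that the interval of the noncoding-only bins lay above the interval of those bins in the low and the high tercile and overlapped it in the middle one. The noncoding-only interval overlapped that of the protein-coding bins in each tercile. Bins with both kinds of start lay above it in the high tercile, at 12.1% (10.5 to 13.9), by a margin smaller than the rounding of these values.

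**Figure D1:**
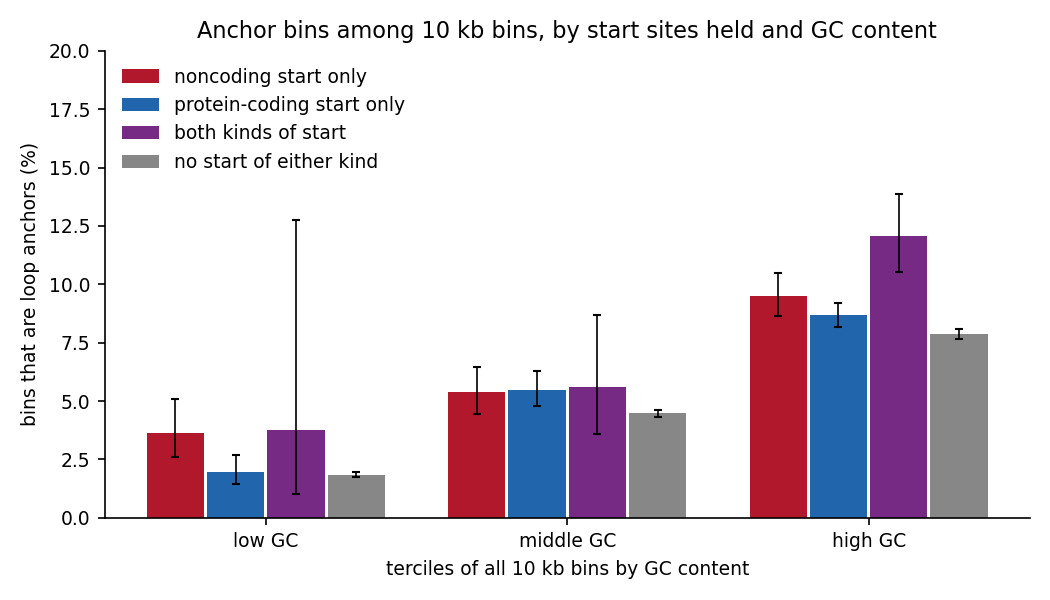
Percentage of 10 kb bins of chromosomes 1 to 19 that are loop anchors, for terciles of all bins by GC content, with bars for the start sites that a bin holds and error bars for 95% Wilson intervals. Shares grow from low to high GC in every class, and noncoding-only bins reach 9.52% in the high tercile.

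By chromosome, the bins ranged from 9 on chromosome 19 to 49 on chromosome 2. Chromosome 2 also had the highest share of noncoding-only bins that were anchors, 11.0% (8.45 to 14.3), with 5.85% for all its bins. Chromosome 12 had the lowest, 4.70% (2.99 to 7.31), with 4.60% for all its bins. The share for noncoding-only bins was above that of all bins on 18 of 19 chromosomes, chromosome 19 being the exception, with 9 of 180 bins (2.65% to 9.23%) against 5.12%.

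The 535 genes lay nearer to protein-coding genes than the 6435 other noncoding genes that begin away from protein-coding start bins. Their median distance to the nearest protein-coding start was 42613 bp (37111 to 48659), against 58479 bp (56166 to 61491) for the others. A distance over 100 kb was found for 26.2% (22.6 to 30.1) of them and 35.9% (34.8 to 37.1) of the others, and a distance within 10 kb for 14.95% (12.2 to 18.2) and 9.67% (8.97 to 10.4). Only 2 of the 535 formed a divergent pair within 1 kb of a protein-coding start, and pairs that share a bin are left out by the rule. The start was intergenic in 72.3% and 71.6%, antisense within a protein-coding gene body in 26.0% and 26.7%, and the gene had a single transcript in 72.0% and 75.9%. Median gene length was 6939 bp (5826 to 7644) and 7688 bp (7361 to 7983). Start sites in an exon of another gene made up 8.41% (6.35 to 11.1) against 5.75% (5.21 to 6.35).

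The loops of the noncoding-only bins had FDRs and distances close to those of the whole list. Of the 6689 loops, 79.0% had an FDR below 0.05 and 48.1% below 0.01. For the 563 loops these shares were 79.8% (76.2 to 82.9) and 49.2% (45.1 to 53.3), with a median FDR of 0.0109. Their median distance was 280 kb (250 to 310), with quartiles of 160 and 520 kb. The median was also 280 kb (270 to 290) over all loops, and 270 kb (230 to 290) for loops of bins with both kinds of start. Loops with a protein-coding start only at an anchor had a median of 210 kb (200 to 230). Distances under 200 kb made up 35.3% (31.5 to 39.4) and distances of 1 Mb or more 6.93% (5.11 to 9.33), against 34.0% and 6.45% of the other 6126 loops. The noncoding-only bin was the left anchor alone in 266 loops and the right anchor alone in 278.

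The median distance was longer for loops from lincRNA starts than for those from antisense starts, with intervals that overlapped. It was 310 kb (270 to 350) for 368 loops with a lincRNA start, 220 kb (190 to 280) for 176 loops with an antisense start and 240 kb (160 to 330) for 33 with a processed_transcript start, and a loop with several types at its ends counts under each. Loops whose other anchor held a protein-coding start had a median of 160 kb (140 to 220), and those whose other anchor held no start had 300 kb (260 to 330). For comparison, loops from a protein-coding start to a bin with no start had a median of 230 kb (210 to 250), and loops with no start at either end had 300 kb (290 to 310).

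**Figure D2:**
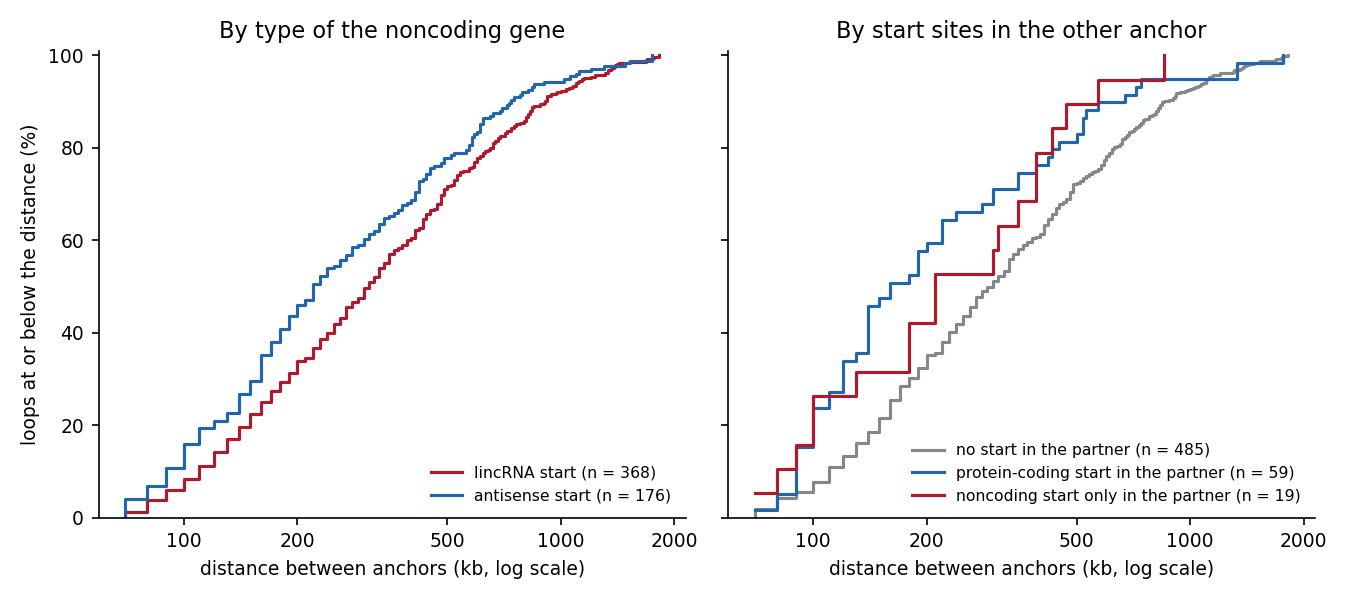
Cumulative share (%) of the loops of noncoding-only anchors at or below each distance in kb (log scale), by type of the noncoding gene (left panel) and by the start sites in the other anchor (right panel). The antisense curve lies to the left of the lincRNA curve at its middle, with medians of 220 and 310 kb, and loops to a protein-coding start have a median of 160 kb.

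Among the 8 loops with the lowest FDR, 1 enclosed Ednrb, the endothelin receptor that melanocyte precursors of the inner ear need. It ran over 300 kb from 4930432J09Rik, a lincRNA gene that begins 182740 bp from the Ednrb start, with an FDR of 1.22e-06. The lowest FDR of all 563 loops, 2.83e-07, belonged to 9030625G05Rik on chromosome 18, whose 170 kb loop enclosed the start of Lipg and stood at place 4 of the whole list. Next came a 90 kb loop between Gm44686 and Gm44738 on chromosome 7, with an FDR of 4.03e-07 and place 9. It enclosed the start of Chd2, a chromatin remodeler linked to epilepsy, and Gm44686 began in an intron of Chd2, antisense to it and 3817 bp from its start. Loops of 1700054K19Rik (140 kb, enclosing Lmcd1), Gm20597 (160 kb, enclosing Cep85l) and 4930545L08Rik (410 kb, enclosing Stac) had FDRs of 3.74e-06, 6.11e-06 and 1.05e-05. Each of these 8 loops enclosed exactly 1 protein-coding start, which was also the median number over the 563 loops and over all loops. Exactly 1 start was enclosed by 39.3% (35.3 to 43.3) of the 563 and 37.4% of all loops, and none by 21.5% (18.3 to 25.1) and 22.7%.

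The 5 longest loops spanned 1740 to 1820 kb. The 1760 kb loop between the bin of Myc, which encodes a transcription factor of growth and proliferation, and the bin of the lincRNA gene Gm41336 had an FDR of 0.0365 and enclosed 0 protein-coding starts. The region downstream of Myc is known to hold distant enhancers of this gene in other tissues. Gm48107, a lincRNA gene 16620 bp from Tfap2a, a transcription factor of neural crest and otic development, looped over 1770 kb (FDR 0.0230). The others began at Gm47101 (1820 kb, FDR 0.00321), 1700126G02Rik (1750 kb, FDR 0.0190, enclosing Sox5) and Gm4409, antisense within Lrrtm4 (1740 kb, FDR 0.0243). All 5 of the shortest loops spanned 70 kb, and they began at Gm47648, Gm27244, 4921511I17Rik, Gm36757 and Gm16239 with FDRs from 0.00401 to 0.0285. The loop of Gm27244, which lies antisense in an intron of Gpsm2, a gene of hair bundle orientation, enclosed the starts of Gpsm2 and Aknad1.

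The other anchor held a protein-coding start in 59 of the 563 loops (10.5%, 8.21 to 13.3) and no start of either kind in 485 (86.1%, 83.05 to 88.8). When the 5′ end of every annotated transcript was used in place of the 5′ end of the gene, for both kinds of gene, the share with a protein-coding start was 20.3% (17.2 to 23.8) of 557 loops. Counted by loop ends, 10.1% (7.94 to 12.9) of partners of noncoding-only bins held a protein-coding start, against 12.7% (11.0 to 14.5) for bins with a protein-coding start only. The gene reached was the nearest protein-coding gene of the noncoding start in 6 of the 59 loops. Those genes were Meis1, Zeb2, St7, Tob1, Adgrl2 and Fam174b, named here after their values were seen. The shortest loops of noncoding-only bins spanned 70 kb, and the median distance to the nearest protein-coding start was 42613 bp over the 535 genes. A nearest start closer than the shortest loops could not be reached, so that this count does not show that loops pass over the nearest gene. In 3 of the 59 loops, the start reached was that of the gene in whose body the noncoding start lies. They joined Gm45449 to Rnf150 (220 kb, FDR 9.46e-05), Gm26738 to St7 (140 kb, FDR 0.000930) and Gm31224 to Kifc3 (90 kb, FDR 0.00233). The body of the noncoding gene itself reached the other anchor in 4 of the 563 loops, and the median gene length, 6939 bp, was below the 70 kb of the shortest loops.

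The 10 loops to a protein-coding start with the lowest FDR had FDRs from 1.88e-05 to 0.000204 and distances from 100 to 670 kb. The bin of Hoxd3 and Hoxd4, genes of body axis patterning, was joined over 420 kb to the start sites of Gm13652 and 2600014E21Rik with an FDR of 5.66e-05, across Hoxd1 and Mtx2. The Hoxd3 and Hoxd4 gene models begin 2 bp apart, at 74711927 and 74711929 on chromosome 2, so that the loop cannot be assigned to either gene. On the other side of the cluster, Evx2 was joined to 4930441J16Rik over 350 kb (FDR 0.000635), a loop named here after its values were seen. The Hoxd cluster is known to be controlled from gene deserts on both of its sides. Irx2, an Iroquois homeobox gene, was joined over 670 kb to Gm40999 (FDR 0.000201), which begins 7171 bp from the related gene Irx1. Fgf15 was joined to Gm34964 over 100 kb across Fgf3 and Fgf4 (FDR 5.33e-05), and Mesp1 to Gm26646 over 120 kb (FDR 9.58e-05). Gm26646 begins in an intron of Ap3s2, antisense to it and 3712 bp from its start, which lies outside the bin by the rule. The anchor of Gm26646 is thus also close to the Ap3s2 start. Igf1r, the receptor of insulin-like growth factor, was joined to 4833412C05Rik over 150 kb (FDR 0.000112). The first place among these 10 was held by Sorbs2os, antisense within Sorbs2, and Ccdc110, which were joined over 120 kb (FDR 1.88e-05). Bcl2l1, an inhibitor of apoptosis, was joined over 140 kb to Gm26841 (FDR 6.44e-05), and Fam53b over 160 kb to Gm15582 (FDR 0.000204). The bins of Hoxd3, Irx2 and Fgf15 also held a noncoding start, of Hoxd3os1, Gm20554 and Gm26793 in that order.

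Of 156 genes of inner ear development and hearing, a list chosen with earlier results of these data known, 44 began in an anchor bin (28.2%, 21.7 to 35.7), against 7.35% of all protein-coding genes. Such a start stood in the other anchor of 6 of the 59 loops of noncoding-only bins to a protein-coding start (10.2%, 4.74 to 20.5). Over all 1467 loops with a protein-coding start, it stood in an anchor of 56 (3.82%, 2.95 to 4.92). These 56 include the 6, and the intervals overlapped. Lgr4, a receptor that strengthens Wnt signals, was joined to Gm13936 over 280 kb with an FDR of 0.000160. Meis1, a homeobox gene of the TALE class, was joined to 8430419K02Rik over 140 kb (FDR 0.000970). The longest of the 6, at 1330 kb, joined Zeb2, a repressor that acts in neural crest, to Gm13470 (FDR 0.0186), for which Zeb2 was the nearest protein-coding start although 1325315 bp away. Lmx1b, a LIM homeobox gene, was joined to Gm13530 over 160 kb (FDR 0.0258). The bins of Lgr4, Meis1, Zeb2 and Lmx1b also held a noncoding start, of Platr8, Gm16141, Zeb2os and C130021I20Rik in that order. Fzd3, a receptor of planar cell polarity, shared its bin with Fbxo16 and was joined to Gm41177 and Gm30008 over 90 kb (FDR 0.0436). The remaining loop ran over 500 kb from Gm28747 to a bin with Ctbp2 and the 5′ end of the Fgfr2 gene model (FDR 0.0146). This model runs from 130162451 to 133123350 on chromosome 7, across the whole of Fam53b, and overlaps Ctbp2, which begins at 133124354. The loop cannot be assigned to either Fgfr2 or Ctbp2. It is among the 6, and Fgfr2 among the 44, only through the 5′ end of this long model. The bin also held the noncoding start of 4930483O08Rik.

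A further 9 loops enclosed 1 protein-coding start that belonged to a gene of this list, a count made after the values were seen. They were 1.60% (0.843 to 3.01) of the 563 loops, beside 94 (1.41%, 1.15 to 1.72) of all 6689 loops, so that the share was near the background. With Ednrb they concerned Tbx3, Notch1, Kit, Pax8, Bmp4, Id4 and Otx2, which include regulators of otic patterning and, in Kit, a receptor of melanocyte precursors. Tbx3, a T-box repressor, was enclosed by a pair of them. The lincRNA gene Tbx3os2, 20549 bp from the Tbx3 start, looped across it over 910 kb to chr5:118780001-118790000 (FDR 0.000428). From the other end, Gm43782 in chr5:118870001-118880000 looped across it over 810 kb to chr5:119680001-119690000 (FDR 0.00102), the bin next to that of Tbx3os2. That bin overlapped the Tbx3 gene body. Both calls lie within 100 kb of each other at each end, the limit used for merging calls, so that they may be the same contact. The Notch1 start lay within a 110 kb loop of Gm13568 (FDR 0.000713) and the Kit start within a 640 kb loop of Gm28865 (FDR 0.00156). Pax8 was enclosed by a 150 kb loop of Gm13417 (FDR 0.00232), Bmp4 by a 330 kb loop of Gm15222 (FDR 0.00452), Id4 by an 800 kb loop of 4930471G24Rik (FDR 0.0411) and Otx2 by a 330 kb loop of 4933429O19Rik (FDR 0.0723). Gm15222 began 3.15 kb from the Bmp4 start. Its anchor, chr14:46380001-46390000, overlapped the Bmp4 gene body, and the Bmp4 start at 46390669 lay just past the border of this bin.

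**Figure D3:**
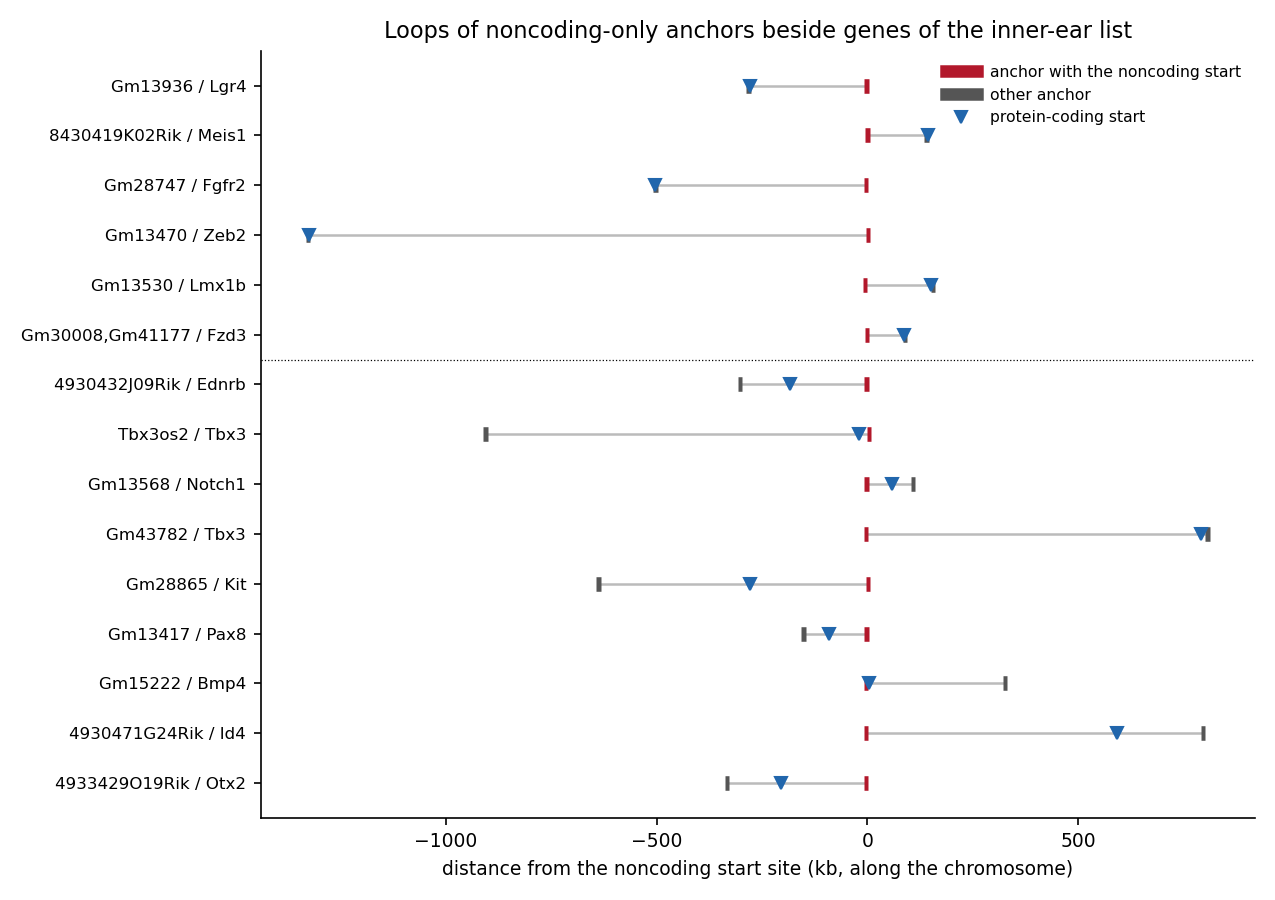
Loops of noncoding-only anchors beside genes of the inner ear list, in kb along the chromosome from the noncoding start site, with red bars for the anchor that holds that start, grey bars for the other anchor and triangles for the protein-coding start. In the 6 upper rows the protein-coding start lies in the other anchor, from Fzd3 at 87.5 kb to Zeb2 at -1325 kb, and in the 9 lower rows it lies between the anchors.

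In 19 loops, noncoding-only bins stood at both ends, with a median distance of 210 kb (100 to 390) and 13 of 19 below an FDR of 0.05 (68.4%, 46.0 to 84.6). By loop ends, 38 of 582 partners of noncoding-only bins (6.53%) were themselves noncoding-only bins, each of the 19 loops being counted from both of its ends. The share was 3.50% (2.64 to 4.62) for bins with a protein-coding start only, 5.36% (3.09 to 9.13) for bins with both kinds, 4.32% (3.96 to 4.71) for bins with neither and 4.35% over all ends. Inside Dnm3, which encodes a dynamin, 2810442N19Rik and Dnm3os, the host transcript of miRNAs, were joined over 210 kb (FDR 0.00208), and both begin in introns of Dnm3 on the opposite strand. An 850 kb loop on chromosome 7 (FDR 0.000148) joined Gm38584 and 4930402F11Rik to Gm44946 and Gm44948, of which Gm44948 begins 19039 bp from Nr2f2, a nuclear receptor gene, and no protein-coding start lay between. Gm34654 and Gm39375 were joined over 210 kb across Elovl5 (FDR 7.72e-05), and Gm45515 and Gm28863 over 350 kb across Sbf2 and Adm (FDR 0.000191). AC131323.3, 9473 bp from the start of Sox8, was joined over 130 kb to AC134908.3 and AC134908.5 (FDR 0.00413). The other named pairs were Gm48867 with Gm47599, Gm12676 with 0610025J13Rik across Nfia, 5430427N15Rik with Gm42620 across Ptpn13, Snhg7os with Gm13398, 5031415H12Rik with Gm20703 and Gm13561 with Gm13564 across Dpp4, with FDRs from 0.00179 to 0.0424.

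Most of the bins were used once. Of the 502, 426 were used by 1 loop, 72 by 2, 4 by 3 and 0 by more, so that 15.1% (12.3 to 18.5) had 2 or more loops, against 10.9% (9.30 to 12.8) of bins with a protein-coding start only and 13.8% (13.1 to 14.5) of bins with neither. Partners on both sides were found for 11 bins (2.19%, 1.23 to 3.88), against 1.17% (0.698 to 1.95) of bins with a protein-coding start only, 1.02% (0.280 to 3.64) of bins with both kinds, 1.07% (0.883 to 1.29) of bins with neither and 1.13% (0.951 to 1.34) of all anchor bins. By side, 237 bins were left anchors only and 254 right anchors only. The 4 bins with 3 loops each had all partners on one side. Gm15418 on chromosome 8 reached to 170, 620 and 750 kb on its left, Gm4319 on chromosome 1 to 490, 620 and 840 kb on its left across Fn1, which encodes fibronectin, and Gm11379 on chromosome 13 to 610, 700 and 900 kb on its right. Gm11379 begins 9094 bp from Foxc1, a forkhead gene, on the side of its partners, so that any loop to these partners must enclose Foxc1. All 3 loops also enclosed Gmds, and the calls at 610 and 700 kb lie within the 100 kb limit used for merging calls. The fourth, 4930420G21Rik on chromosome 16, reached to 170, 480 and 1390 kb on its right. Their FDRs ran from 0.000137 to 0.0709.

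A list of noncoding genes of known name was chosen with earlier results of these data known, and 104 of its genes were present in the annotation. It does not hold every named noncoding gene, and Sorbs2os and Snhg7os, for example, are not on it. Of the 104, 6 began in a noncoding-only anchor and 10 in an anchor that also held a protein-coding start. A further 60 began in no anchor, and 28 in no anchor but in a bin with a protein-coding start. Together, 16 of the 104 began in an anchor (15.4%, 9.70 to 23.5), against 8.35% of all noncoding genes. Away from bins with a protein-coding start, it was 6 of 66 (9.09%, 4.23 to 18.4), against 7.68%. Malat1, Neat1, H19, Meg3, Hotair, Pvt1 and Sox2ot were among the 60. Besides Dnm3os and Tbx3os2, the 6 were Platr5, Snhg20, Snhg6 and Bvht. Platr5, first described in pluripotent cells, had a 440 kb loop with an FDR of 9.78e-06 and a 330 kb loop with an FDR of 0.0994, both across Sh3bp4. The small nucleolar RNA host genes Snhg20 and Snhg6 had loops of 100 kb (FDR 0.000912) and 160 kb (FDR 0.0555), and Bvht, known from cardiac differentiation, was joined over 80 kb to the start of Csnk1a1, a kinase of the Wnt pathway (FDR 0.0133).

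A match of the CTCF consensus on either strand, with at most 1 mismatch, was present in 273 of the 502 bins (54.4%, 50.01 to 58.7). It was present in 24.8% (23.8 to 25.9) of the 6161 noncoding-only bins that were not anchors, in 51.0% (48.2 to 53.9) of anchors with a protein-coding start only and in 47.9% (46.9 to 48.9) of anchors with neither kind of start. Without a mismatch, the shares were 18.5% (15.4 to 22.2) of the 502, 13.3% (11.5 to 15.3) of protein-coding anchors and 13.5% (12.8 to 14.2) of anchors with neither. Binding of CTCF was not analysed here, and GC content, given above, also differed between these classes.

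The strand of the match followed the side of the loop. Among noncoding-only bins with a better match on one strand, it was forward in 99 of 121 left anchors (81.8%, 74.0 to 87.7) and in 17 of 127 right anchors (13.4%, 8.53 to 20.4). Protein-coding anchors gave 74.6% (69.1 to 79.3) and 23.5% (18.8 to 29.0). Anchors with neither kind of start gave 80.7% (78.9 to 82.3) and 17.3% (15.7 to 18.9). The noncoding-only intervals overlapped those of each of these classes on either side, so that the split was not shown to be particular to noncoding-only bins. Of the 140 loops with 1 orientation at each end, 94 were convergent (67.1%, 59.0 to 74.4) and 4 divergent, against 68.7% (66.2 to 71.1) convergent among 1343 other loops. The printed windows of Platr5, Gm13530, 4833412C05Rik and Gm41336 are of the convergent kind.

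**Figure D4:**
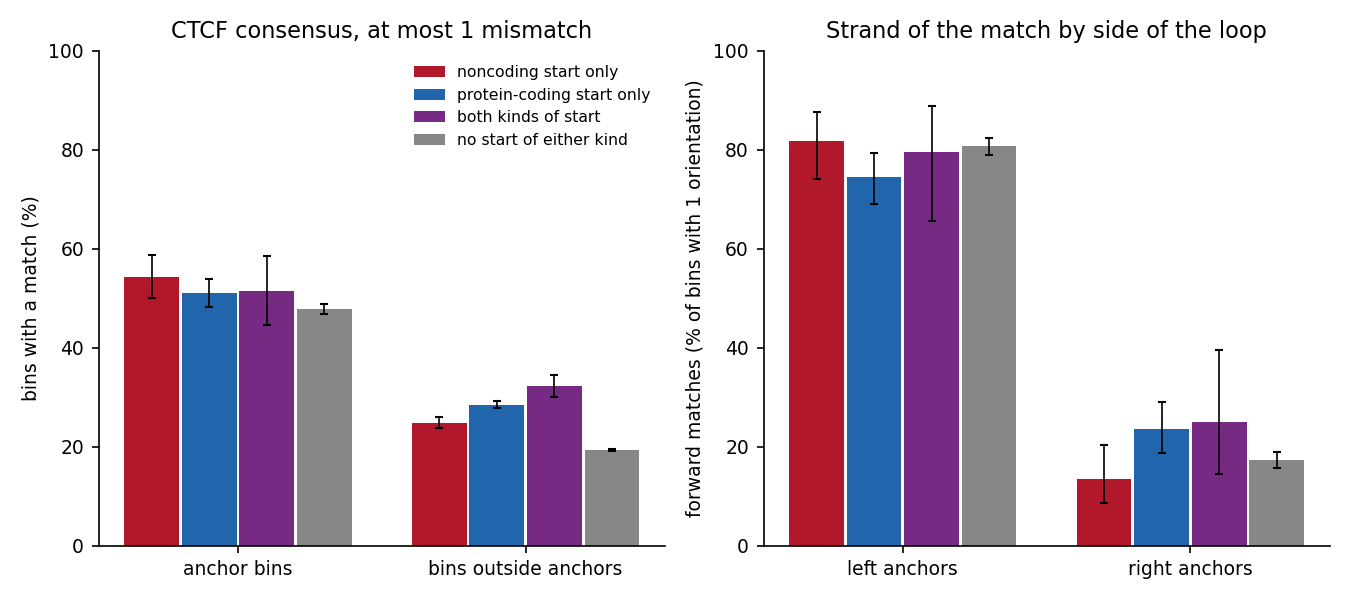
Percentage of 10 kb bins with a match of the CTCF consensus, in anchors and outside them (left panel), and percentage of matches that are forward in left and right anchors among bins with 1 orientation (right panel), by start sites held and with 95% Wilson intervals. Noncoding-only anchors stand at 54.4% against 24.8% outside anchors, and at 81.8% forward on the left against 13.4% on the right.

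The direction of transcription was not shown to follow the side of the loop, unlike the strand of the CTCF match. Of 523 noncoding starts with all partners on one side, 278 were transcribed toward the partner (53.2%, 48.9 to 57.4), an interval that includes an even split. The share was 57.6% (49.6 to 65.2) of 151 antisense starts, 51.2% (45.9 to 56.4) of 346 lincRNA starts and 51.8% (49.3 to 54.3) of 1511 protein-coding starts in anchors. Noncoding starts ran on the strand of the CTCF match of their bin in 150 of 266 cases (56.4%, 50.4 to 62.2), and protein-coding starts in 384 of 704 (54.5%, 50.9 to 58.2). The nearest match in the bin lay a median of 1904.5 bp from the noncoding start (1654 to 2451) and 1893.5 bp (1722 to 2075) from the protein-coding start, and a match within 1 kb was found for 18.1% (15.1 to 21.6) and 16.0% (14.2 to 17.9).

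In some of these genes the CTCF match lay in the promoter itself. RefSeq promoters (GRCm38.p6, from 250 bases before to 50 after the start) were found for 198 of the 535 genes, with 238 promoters in all. A match was present in 21 of them, each of a different gene (8.82%, 5.84 to 13.1). The share was 1.47% (1.09 to 1.98) of 2922 promoters of other noncoding genes outside anchor bins, 6.12% (4.90 to 7.62) of 1209 promoters of protein-coding genes in anchors, 2.48% (2.26 to 2.72) of 17821 promoters of protein-coding genes outside anchors and 2.34% (2.18 to 2.51) of all 31396 promoters. The match ran on the strand of the gene in 15 of the 21 (71.4%, 50.04 to 86.2) and in 61.4% (57.8 to 64.8) of the 735 promoters with a match over the whole table. Median GC content was 49.0% in the 238 promoters and 53.0% in all, with 5 and 7 CpG per promoter.

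**Figure D5:**
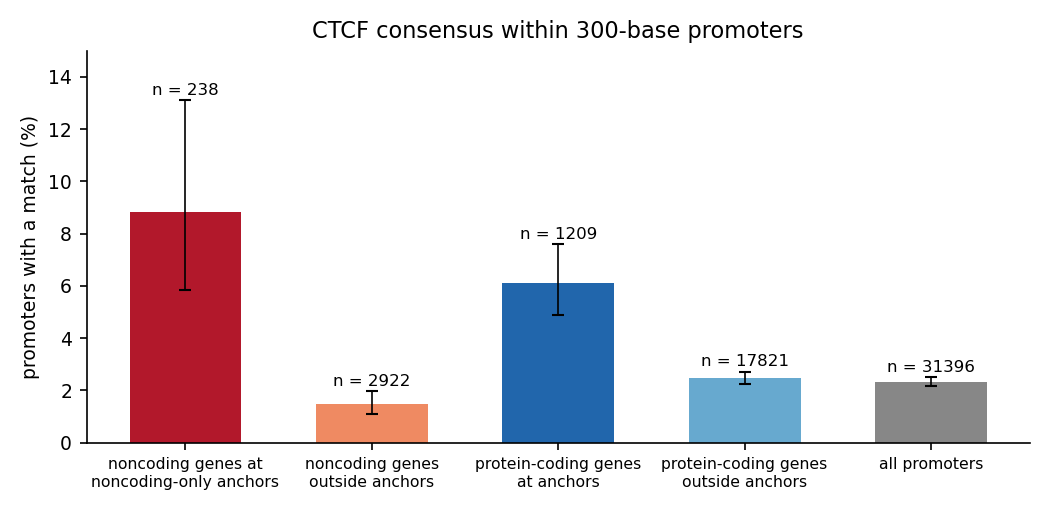
Percentage of RefSeq promoters with a match of the CTCF consensus (at most 1 mismatch, either strand), with 95% Wilson intervals and the number of promoters above each bar. Promoters of noncoding genes at noncoding-only anchors stand at 8.82%, against 1.47% for noncoding genes outside anchors.

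The match was exact in 4 of the 238 promoters, those of Gm4319, E330013P04Rik, Tbx3os2 and Gm33460, and in 0.347% of all promoters. A pair of these belonged to loops described above and are printed whole, on the strand of the gene, with the match in capitals.
Tbx3os2, chr5:119691169-119691468, minus strand: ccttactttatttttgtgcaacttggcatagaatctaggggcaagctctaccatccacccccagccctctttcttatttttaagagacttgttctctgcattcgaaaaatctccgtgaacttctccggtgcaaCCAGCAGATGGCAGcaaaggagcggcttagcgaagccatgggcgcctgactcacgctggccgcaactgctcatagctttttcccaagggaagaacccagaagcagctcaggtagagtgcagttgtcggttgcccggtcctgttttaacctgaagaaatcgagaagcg
Gm4319, chr1:72123709-72124008, minus strand: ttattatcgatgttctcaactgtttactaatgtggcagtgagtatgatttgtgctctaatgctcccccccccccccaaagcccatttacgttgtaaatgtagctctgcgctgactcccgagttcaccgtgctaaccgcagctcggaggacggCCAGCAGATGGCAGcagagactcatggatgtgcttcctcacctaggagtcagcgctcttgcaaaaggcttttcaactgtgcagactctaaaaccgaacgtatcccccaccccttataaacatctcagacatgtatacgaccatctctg
In Tbx3os2 the match began 117 bases before the RefSeq start and in Gm4319 98 bases before it, and both lay on the strand of the gene. Both genes are transcribed toward lower coordinates, the side on which their partners lay. The RefSeq start of Gm4319 lies upstream of its GENCODE start in the same bin. With 1 mismatch, matches were found in the promoters of 4930432J09Rik beside Ednrb, Gm13652 at the Hoxd loop, 4833412C05Rik at the Igf1r loop, Gm15418 and 4930545L08Rik. The match ran on the strand of the gene in 4930432J09Rik, Gm13652 and 4930545L08Rik and on the opposite strand in 4833412C05Rik and Gm15418.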

How the data were processed

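Micro-C reads of the 4 replicates were aligned by the authors to mm10 with BWA-MEM, duplicates were removed with pairtools, matrices were made with Juicer tools, and loops were called with Mustache in 10 kb bins on the merged replicates. The authors deposited a q-value (FDR) with each loop, from the loop caller, and all are below 0.1. The detection scale is a score that the authors deposited with each loop, used only as a filter. Read depth per loop and per-replicate values are not in the list, so that its precision is given by intervals over loops, bins or genes, and 0 columns of per-sample values were left out. ATAC-seq and CUT&RUN samples were not analysed here.

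Start sites were the 5′ ends of GENCODE vM21 genes and sequence was GRCm38, and all anchor bins end within its chromosomes. Bins with over 10% unknown bases (0 of the anchor bins) were left out of shares over the genome. The 14-base CTCF consensus was written from general knowledge. It was searched on both strands with at most 1 mismatch, matches may overlap, and a bin whose best matches tie between strands has no orientation. Analysis used Python 3.11.15, numpy 2.4.6, pandas 2.3.3, scipy 1.17.1 and matplotlib 3.10.9 and was tested on simulated data. The bins and gene lists were chosen with earlier results of these data known. Genes were named by these rules: list members, the 8 lowest FDRs, the 5 longest and 5 shortest loops, up to 5 bins with most loops, the 12 lowest FDRs of loops between noncoding-only bins, the 10 lowest to a protein-coding start, all loops to the inner ear list and the 3 bins with most starts. Alternatives were FDR limits, the detection scale, merging of calls and other start site and consensus definitions.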

Additional observations from a re-analysis of the deposited data

How the results depend on the processing

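Of 83 alternative values for 9 results, 68 lay inside the interval of the reported value (for the number of bins, within 1.5 times of it) and 15 outside. The median distance, the share of loops at FDR < 0.05 and the share of starts transcribed toward the partner stayed inside under each alternative that gives a value, and limits on FDR give none for the share at FDR < 0.05. At FDR < 0.01, the number of noncoding-only anchor bins was 268, 6.72% of them had 2 or more loops, 60.8% had a CTCF match and 4.45% of noncoding genes began in an anchor. At FDR < 0.05, bins with 2 or more loops made up 11.9% and genes in anchors 6.73%. With the smallest detection scale, these were 11.3% and 6.37%. Merging calls within 100 kb gave 7.29% of genes. With the 5′ end of any transcript, 20.3% of loops had a protein-coding start in the other anchor and 9.01% of genes began in an anchor. With wider noncoding types, 5.72% of anchor bins qualified, and with no protein-coding start in a neighbouring bin 3.32%. A CTCF match was found in 18.5% of bins without a mismatch and in 97.0% with at most 2, so that the latter limit hardly separates bins. Fewer loops can only lower the numbers of bins and genes. For the other values the cause was not tested.

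No paired analysis was possible because the loops were called on merged replicates, which also leaves no value per replicate and no replicate to leave out. Depth limits which loops were called, so that a bin that is no anchor here is not shown to be without loops.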
